A study of Homo sapiens with 22 samples.

Results

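The genes for the proteins of the cytosolic ribosome were examined in 11 B-cell lymphoma cell lines, each cultured without drugs and with epigenetic drugs. A gene was taken as a member when its symbol was RPL or RPS followed by a number, with an optional A, L, X, AL or L1, or RPLP0, RPLP1, RPLP2 or RPSA. The RPS6K kinases, pseudogenes, readthrough genes and Y-linked genes were left out. The choice used names and no measured values. It gave 71 of the 15461 genes that an array element (a probe) names alone: 43 of the large subunit, 23 of the small subunit and 5 paralogues (RPL26L1, RPL36AL, RPL39L, RPL3L and RPS27L), which are second copies of a ribosomal protein gene elsewhere in the genome. They are carried by 113 of the 32878 elements. In 39 members 1 element names the gene and in 32 several do, up to 4, and the brightest on average was used for the gene. A further 14 coding genes fit the names but are not analysed here, among them RPLP0, RPSA and RPL15.

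Each line gave 1 untreated array and 1 array after aza/TSA, 22 in all. Treated cells grew for 72 h with 1 µM 5-aza-2'-deoxycytidine (aza), renewed every 24 h, and received 0.5 µM trichostatin A (TSA) for the last 12 h. Aza inhibits DNA methyltransferases and TSA inhibits histone deacetylases. The lines are models of Burkitt lymphoma (BL; Raji, BL41 and Ramos), of the activated B-cell-like type (ABC; HLY-1, Ocily3 and Ocily10) and the germinal center type (GCB; Sudhl4 and Sudhl6) of diffuse large B-cell lymphoma, and of follicular lymphoma (FL; K422, SC-1 and ROS-50). Each is 1 established tumour line with 1 culture per condition, so the lines are the replicates. The drugs were never given singly. The medium was IMDM with human plasma for Ocily3 and Ocily10, and RPMI with fetal calf serum elsewhere. The arrays report RNA relative to the other RNAs of the same culture, so fewer cells and less RNA per cell cannot be told apart.

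A ribosome joins a small subunit, which reads the messenger RNA, to a large subunit, which forms the peptide bond. Each holds ribosomal RNA and one copy of nearly every ribosomal protein, and cells make these proteins in matched amounts. Most of their messenger RNAs begin with a 5' terminal oligopyrimidine tract (TOP), a cytosine followed by a run of C and T, through which LARP1 and the kinase mTOR set how much of them is translated. Ribosomal protein messages are among the most abundant in dividing cells, B-cell lymphoma included, and several ribosomal proteins also act outside the ribosome. RPL5 and RPL11, for instance, bind MDM2 and so raise p53.

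The transcription start is shown for 3 paralogues and their parents, for RPL32 and for 2 typical members. The following windows of 25 bases run from 10 bases before the annotated start to 15 bases from it on, read from RefSeq promoters of GRCh38.p14 on the strand of the gene. Capitals mark a TOP start, here a C as the first transcribed base with at least 4 further bases that are all C or T.
RPS27, chr1:153990752-153990776, plus strand: cgctttcgctCCTTTCCggcggtga
RPS27L, chr15:63157463-63157487, minus strand: gatgccgagcgcagatcgcttgcag
RPL26, chr17:8383179-8383203, minus strand: gcgtgtagttCTCTTCCCTTTTgcg
RPL26L1, chr5:172958719-172958743, plus strand: tccaggggtcggcgaacgaaacgcg
RPL36A, chrX:101391001-101391025, plus strand: ctcgcggtttCTTTCTTTCCgcgcc
RPL36AL, chr14:49620612-49620636, minus strand: tcttccctttcctgttaggcgagag
RPS6, chr9:19380222-19380246, minus strand: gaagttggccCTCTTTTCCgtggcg
RPLP1, chr15:69452808-69452832, plus strand: ggcgcgagagCCCCTTTCCTCagct
RPL32, chr3:12841551-12841575, minus strand: acgacccatcagcccttgcgcgcca

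The 3 parent genes shown here begin with a TOP start, and the annotated starts of RPS27L, RPL26L1 and RPL36AL hold none. Other standard genes lack one as well, the parent gene RPL3 among them, and the parent RPL39 has one. RPL32, the member whose level passed the test of treatment, has 3 annotated starts in the table and none of them met the definition; 1 is shown. Of the 71 members 59 had a start in the table and 41 of these (69.5%) had at least 1 TOP start and 18 had none, against 1404 of all 27305 genes (5.14%). Among the genes of the mitochondrial ribosome it was 6 of 66 (9.09%). The letters were read only at the annotated start and on the transcribed strand.

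Ribosomal protein genes were among the brightest signals of every array. The 113 elements gave 8.75% to 13.4% of the summed signal of an untreated array (mean 11.1%, SD 1.48, n = 11), although they are 113 of 32878 elements. Between 27 and 39 of the 100 brightest elements of an untreated array were theirs, with a median of 30. By mean level over all arrays, 31 members had an element among the 100 brightest and 64 among the 1000 brightest. In both groups 69 of 71 members were detected, meaning above the array median in at least 6 of 11 arrays. The other 2 were RPL3L and RPL10. RPL10, which joins the large subunit late, near the tRNA binding sites, had an element below the array median on all 22 arrays (7.36 to 10.11 untreated, 7.29 to 9.01 after aza/TSA, log2), so that its values carry little information on this gene. The lines were checked by their markers: 6 of 7 measured B-cell genes and 0 of 8 T-cell genes were detected in untreated cells, although CD3D and CD3G reached 16.38 and 15.70 in single untreated lines. Of myeloid genes 3 of 6 and of plasma cell genes 3 of 4 were detected. After aza/TSA 6 of the 7 B-cell genes were called lower (median -2.2) by the limma test given below, as were 12.4% of all elements. The part of this fall in the member differences was not tested. Before normalization the median signal of an array was 717 to 1582 untreated and 633 to 2154 after aza/TSA. Sudhl6 and ROS-50 stood apart in their member differences, and the main counts are also given without them.

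In the quantile-normalized table the messages of the ribosome differed little after aza/TSA. The limma test with the cell line as a block called 1 of 71 members higher, RPL32, and 0 lower, at an adjusted p under 0.05 over all elements. Over all elements 11.2% were called higher and 12.4% lower, and of all named genes, each by its brightest element, 30.3% were called in either direction. The mean treated minus untreated difference had a median over members of 0.06 log2 units, against -0.03 over all elements, with 49 members above 0 and 22 below. It ran from -0.26 for RPL10 to 0.69 for RPL3L. Unadjusted p was under 0.05 in 4 members (RPL32, RPL39L, RPL3L and RPS27L), which is a smaller share than the 33.7% of all elements.

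The precision bounds what the arrays could have missed. For 69 of 71 members the 95% interval of the mean difference lay within 1 log2 unit (2-fold) of 0 on both sides, and for 51 of 71 within 0.5. The exceptions at 2-fold were RPL3L and RPS27L, whose intervals ended at 1.26 and 1.20. Among the 69 are RPL10, below the median of every array, and RPLP1, at the highest value of the table on 13 of 22 arrays. The intervals of RPL10 and RPLP1 do not bound what was missed for these genes. Other scalings gave wider intervals: 69 members were within 1 and 23 within 0.5 with median scaling, and 70 and 33 with no normalization. The SD of the difference over the 11 lines had a median of 0.26 over members and 0.82 over all elements in the table. Over members it was 0.52 with median scaling and 0.46 with no normalization. Bright elements varied less: among 375 elements of other or unnamed genes with a mean level of at least 19 (a bound chosen after the values were seen) the median SD was also 0.26. Of these 14.1% were called, 16 higher and 37 lower, against 0 of the 59 members at such a level. From 13 to 18, where 7 members lay and 1 was called, it was 48.6% of other elements. No member reached 2-fold in 6 of 11 lines in either direction, a rule that 6.52% of all elements met upward and 5.8% downward. Of the 781 differences of a member in a line 35 reached 2-fold (4.48%), 29 upward and 6 downward, against 30.8% over all elements.

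**Figure D1:**
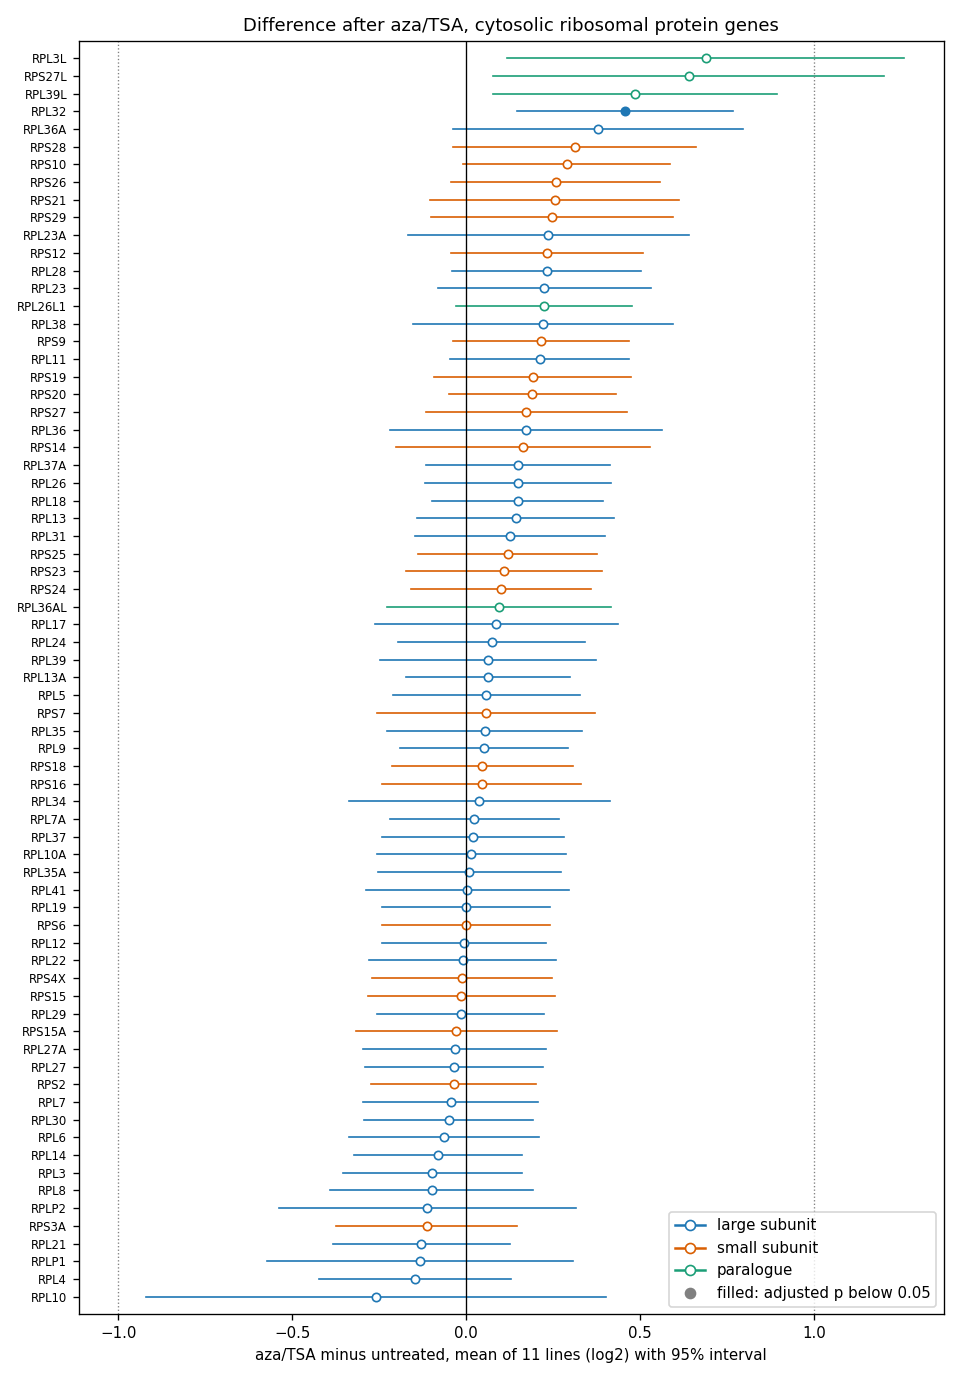
Mean aza/TSA minus untreated difference (horizontal axis, log2) of each of the 71 members, with its 95% interval from limma over 11 lines; colours mark the subunit or paralogue and dotted lines 2-fold. The intervals of 69 members stay within the dotted lines, and only RPL32 is filled.

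The called member was RPL32, a protein of the large subunit. It was dim for a member, while 59 members had a mean level of at least 19. Its untreated level ran from 11.52 in K422 through a median of 13.99 to 15.59 in ROS-50, and its treated level from 11.76 through 14.58 to 16.28 (log2). The ranges overlap almost fully because the lines differ by more than the treatment moved them, while within lines it was higher in 10 of 11, from 0.05 in Ocily3 to 1.17 in Sudhl6, and -0.01 in HLY-1. The mean difference was 0.46 (SE 0.14, limma adjusted p = 0.0338). The call rested on the scaling and on single lines. With signals divided by the array median the difference was 0.13 (adjusted p = 0.637), and it lost its call when any of BL41, Ocily10, Sudhl4, Sudhl6, SC-1 or ROS-50 was left out (0.38 to 0.46, adjusted p = 0.0534 to 0.0727).

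The choice of variance model decided how many members were called. With a trend of the variance on brightness limma called 5 of 71 members higher (RPL26L1, RPL32, RPL39L, RPS10 and RPS27L) and 0 lower, where 12.3% of all elements were called higher. RPS10, which lies at the entrance of the messenger RNA channel and is mutated in some patients with Diamond-Blackfan anaemia, had a difference of 0.29, higher in 10 of 11 lines. Higher in at least 10 lines were 8 members (RPL26L1, RPL28, RPL32, RPL36A, RPS10, RPS20, RPS28 and RPS29), by 0.19 to 0.46, and lower in at least 10 was RPL4 alone, at -0.15. Over all elements 10.4% and 11.2% did so.

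By group, the 43 large subunit members had a median difference of 0.02 with 1 called higher and 0 lower. The 23 small subunit members had a median of 0.12 with 0 called in either direction, and 0 had an unadjusted p under 0.05. The 5 paralogues had a median of 0.48 and all 5 values were above 0, with 0 called. Of the 19 genes listed for Diamond-Blackfan anaemia, an inherited failure of red cell formation caused by loss of 1 copy of a ribosomal protein gene, 17 were measured, 0 were called and 16 had a value above 0 (median 0.15). The 41 members with a TOP start had a median of 0.07 with 0 called, and the 18 without one 0.05 with 1 called (RPL32).

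These small positive medians depended on the scaling. The table is quantile normalized, which gives every array the same set of values. With signals divided by the array median the median over members was -0.17, beside a median of -0.15 over all elements, and 8 of 71 members were above 0. Relative to all elements the members then lay at -0.02, against 0.09 in the table. That scaling called 0 members higher and 1 lower, and over all elements 7.92% higher and 17.1% lower. The member was RPL22 (-0.49, adjusted p = 0.0243), whose difference in the table was -0.01. On signals with no scaling the median over members was -0.08 and 0 were called, where 8.5% of all elements were called higher and 12.7% lower. Of the 17 Diamond-Blackfan anaemia genes 2 were above 0 with median scaling and 8 with no scaling. Of the 5 paralogues 2 were above 0 with median scaling and 3 with no scaling.

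The share of the raw signal needs no scaling between arrays. It ran from 8.72% to 14% after aza/TSA (mean 12.2%, SD 1.44, n = 11). It was higher after treatment in 9 lines, by up to 2.67 percentage points in Sudhl6, and lower in K422 and ROS-50, by up to 1.07 in ROS-50. The mean of the paired change was 1.10 percentage points (SD 1.11). Member elements among the 100 brightest numbered 29 to 40 after treatment, with a median of 35, more than before in 9 lines and fewer in SC-1 and ROS-50.

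Sudhl6 and ROS-50 stood apart from the other lines, in opposite directions. In Sudhl6 27 members were over 0.5 log2 units higher after aza/TSA and 7 over 0.5 lower, 13 were at least 2-fold higher, and the median over members was 0.23. In ROS-50 48 of 71 members were lower, 8 by over 0.5, and the median was -0.15. In the other 9 lines the median lay between -0.03 (K422) and 0.20 (Ocily3). In Sudhl6 the untreated array was low: 23 members there lay over 0.5 below their own mean over the untreated lines, against 1 to 10 in the other lines. After treatment 7 did. In ROS-50 it was 1 member untreated and 12 treated, while treated K422 had 13 and the other treated lines 2 to 7. These counts see only low values. Members of the untreated ROS-50 array lay at a median of 0.20 above their mean over the lines. In the other lines that median ran from -0.11 (Sudhl6) to 0.11 (Ocily10). Which ROS-50 array was the unusual one was not tested. On median-scaled signals Sudhl6 and ROS-50 were again the extremes of the median over members, at 0.65 and -0.90. Without both lines the median over members was 0.06 and 1 member was called higher, RPL3L in place of RPL32.

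**Figure D2:**
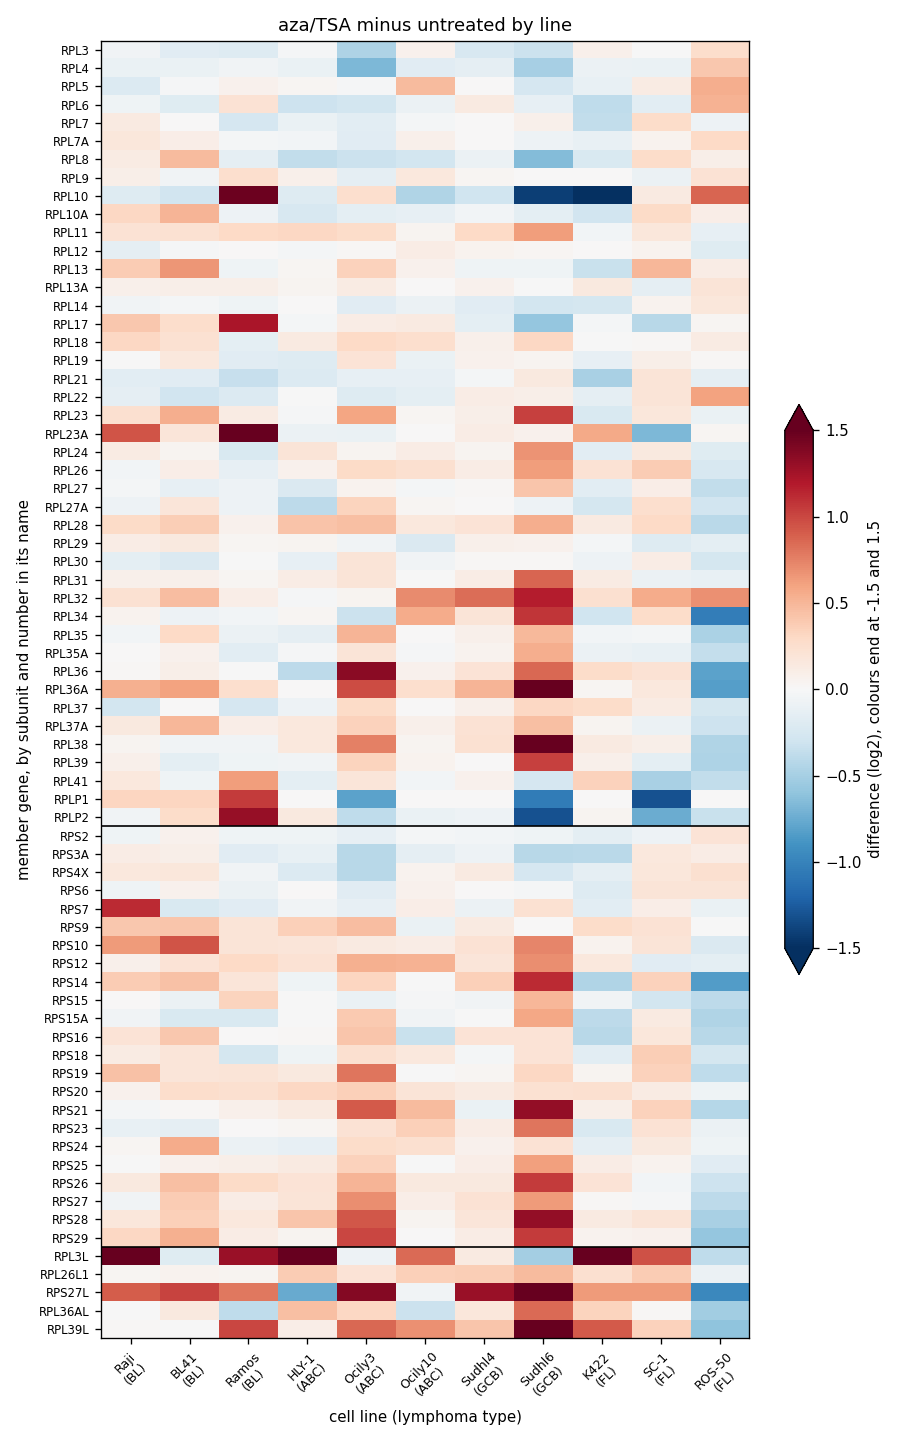
Aza/TSA minus untreated difference (colour, log2) of each member (rows, by subunit and the number in the name) in each line (columns, 1 pair of arrays each). Most cells are pale; in Sudhl6 and Ocily3 the members with higher numbers are red, and in ROS-50 they are blue.

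Within Sudhl6, Ocily3 and ROS-50 the difference followed the number in the gene name, a correlation that was not among the planned results. The numbers were given by migration in gels, so that higher numbers are broadly the smaller proteins. Over the 41 numbered large subunit members the Spearman correlation of number and difference was 0.67 in Sudhl6, 0.62 in Ocily3 and -0.78 in ROS-50. Over the 23 small subunit members it was 0.66, 0.73 and -0.58. It was positive in 9 of 11 lines for the large and in 8 of 11 for the small subunit. For the large subunit it was also 0.55 in Sudhl4 and 0.48 in K422, with 0.17 in Ocily10 and -0.06 in SC-1. There it lay between 0.02 and 0.11 in Raji, BL41, Ramos and HLY-1. With the mean difference over the lines it was 0.44 for the large and 0.57 for the small subunit. These are correlations across genes that share the same 2 arrays, and genes are not independent replicates. RNA length and RNA quality were not measured here and their part in this pattern was not tested.

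Single members, given as examples, show both sides of it. RPL4, in the core of the large subunit, was lower by 0.50 in Sudhl6 and by 0.67 in Ocily3, and higher by 0.40 in ROS-50. RPL36A, one of the small proteins, moved the other way, by 1.67, 0.98 and -0.83. RPL38, RPS21, RPS28 and RPS29 were each at least 2-fold higher in Sudhl6. Over the 11 lines the difference of a member correlated with the mean of the other members with a median r of 0.49, from -0.86 for RPL3 to 0.96 for RPS14 (n = 11 lines, all members sharing the same arrays), and 52 of 71 were positive.

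The stalk proteins RPLP1 and RPLP2, which with RPLP0 form the arm that recruits translation factors, had differences of the same sign as each other in the lines where they were largest. RPLP1 was 1.05 higher in Ramos and 1.05 lower in Sudhl6, 1.30 lower in SC-1 and 0.80 lower in Ocily3. RPLP2 was 1.30 higher in Ramos and 1.31, 0.74 and 0.38 lower in Sudhl6, SC-1 and Ocily3. The mean difference of RPLP2 was -0.11 (SE 0.20, adjusted p = 0.747, limma). RPLP1 held the highest value of the whole table, 21.46, on 13 of 22 arrays, 7 untreated and 6 treated. Since quantile normalization gives the brightest element of every array that value, its difference of 0.00 in the 4 lines where both arrays were at this value is no measurement. In 5 further lines 1 array was at it, Ramos, Sudhl6, SC-1 and Ocily3 among them, so those differences are bounded by the scaling too, and no mean is given from the table. On unscaled signals its mean difference was -0.08 (SD 0.49, n = 11) and 5 of 11 lines were higher.

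RPS6 and RPL5 varied little between untreated lines. RPS6, the small subunit protein phosphorylated by the S6 kinases, lay at 19.91 to 20.45 untreated (median 20.18) and at 19.71 to 20.64 after aza/TSA (median 20.18). The ranges overlap, and the mean difference was 0.00 with a 95% interval from -0.24 to 0.24. RPL5 had 19.31, 19.70 and 19.91 as lowest, median and highest untreated level and 19.29, 19.73 and 20.33 after treatment, a difference of 0.06 (interval -0.21 to 0.33). Its partner RPL11 had 18.11, 18.72 and 19.11 and then 18.40, 18.83 and 19.32, and was higher in 9 of 11 lines, with a difference of 0.21 (SE 0.12, limma adjusted p = 0.242).

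**Figure D3:**
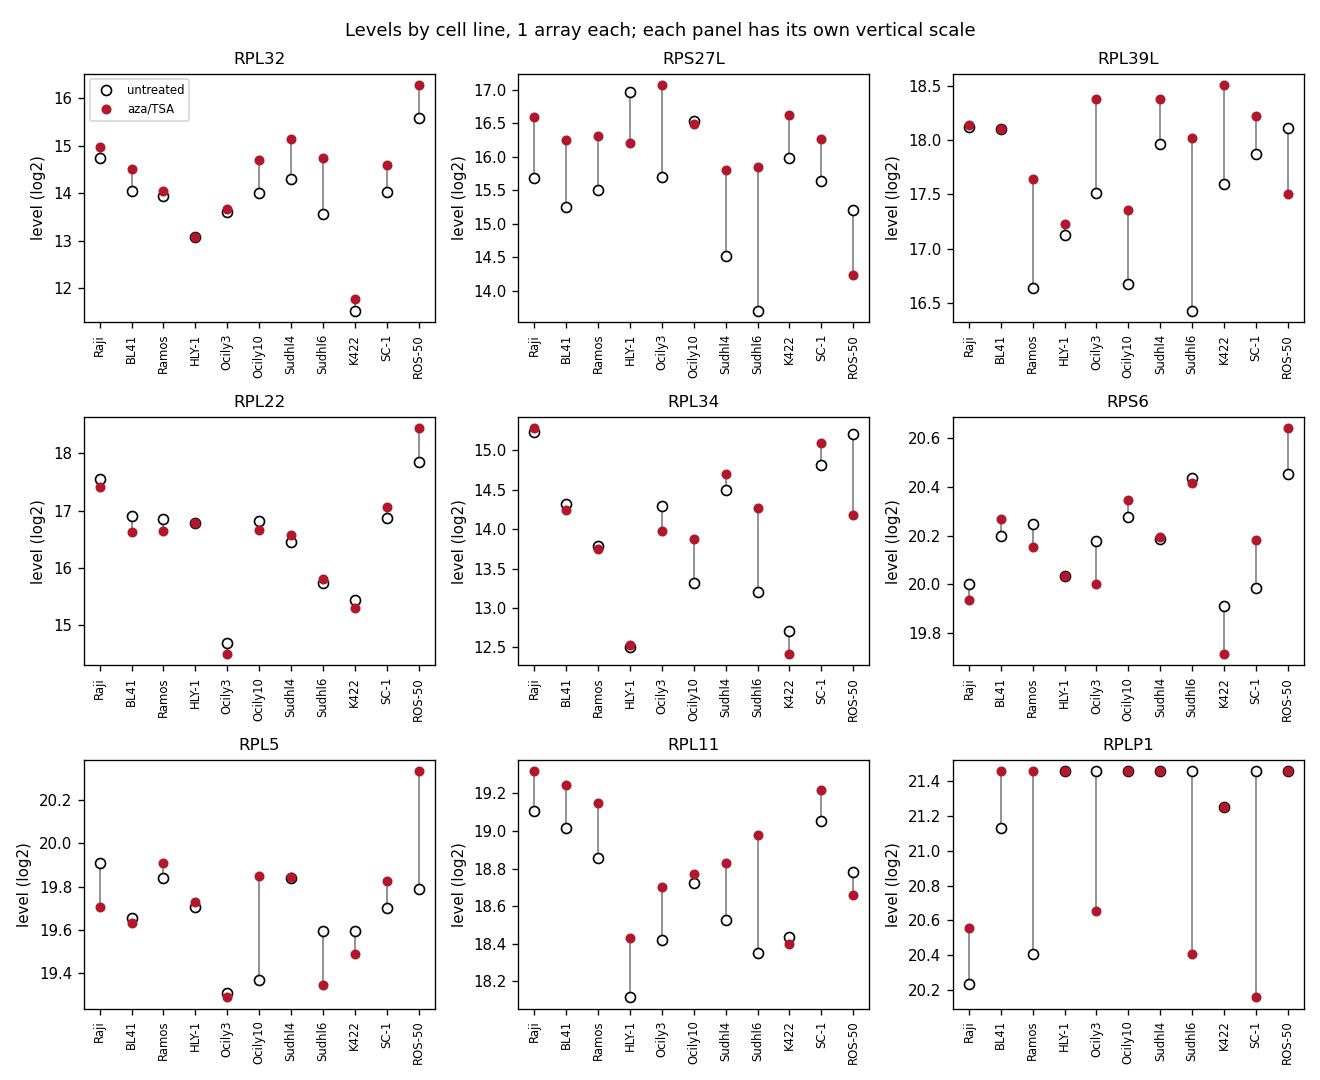
Level (vertical axis, log2, own scale in each panel) of 9 members in each line untreated (open) and after aza/TSA (red), 1 array per point. RPL32 is higher after treatment in 10 of 11 lines, RPL22 differs more between lines than with treatment, and RPLP1 sits at the highest value of the table on 13 arrays.

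In the table the 3 largest mean differences belonged to paralogues. With median scaling RPL39L stood at -0.0019 and RPS27L at 0.20, and with no normalization at 0.09 and 0.29. RPL3L, whose signal is dim, stood at 0.62 and 0.71 in these 2 settings and was called in neither. RPS27L, a p53 target that can take the place of RPS27, had untreated levels of 13.70 (Sudhl6), 15.64 and 16.96 (HLY-1) as lowest, median and highest, and treated levels of 14.24, 16.27 and 17.07. The ranges overlap. It was higher in 8 of 11 lines, by 0.63 in SC-1 to 2.15 in Sudhl6, and lower in HLY-1 (-0.76), Ocily10 (-0.05) and ROS-50 (-0.96). The mean difference of 0.64 (SE 0.26) did not pass the test (limma adjusted p = 0.0982).

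RPL39L, best known from the ribosomes of male germ cells, had levels of 16.43, 17.59 and 18.12 untreated and 17.22, 18.10 and 18.51 treated. The ranges overlap, and the lines lowest untreated (Sudhl6, Ramos and Ocily10) were higher after treatment by 1.59, 1.0 and 0.69, whereas ROS-50 was lower by 0.61. The difference contains the same untreated value, from 1 array, so this ranking and the differences are not independent. The mean difference of 0.48 (SE 0.19) had a limma adjusted p = 0.0844. RPL3L, the form of striated muscle, had an element below the array median on all 11 untreated arrays and above it on 5 treated ones (8.36, 9.38 and 10.07 untreated, 8.59, 9.99 and 11.27 treated). Its difference of 0.69 (SE 0.27, adjusted p = 0.0800, limma) is of a signal at the dim end.

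Each paralogue was set against its parent, line by line, as the difference of the differences, with an exact two-sided permutation test over the 2048 sign flips of the 11 lines and adjustment over the 5 pairs. RPL39L exceeded RPL39 by 0.42 (95% interval 0.17 to 0.67, 9 of 11 lines, exact permutation p = 0.00684, adjusted p = 0.0342). RPL3L exceeded RPL3 by 0.78 (0.18 to 1.39, 8 of 11 lines, exact permutation p = 0.0195, adjusted p = 0.0488). On unscaled signals neither passed, at 0.10 and 0.94 (exact permutation, adjusted p = 0.349 and 0.0635), and neither passed with HLY-1, Ocily10 and Sudhl4 left out (8 lines; 0.43 and 0.65) or in the 9 RPMI lines (0.39 and 0.83). Both also lost it when any of Ramos, Ocily3, Ocily10, Sudhl4, K422 or SC-1 was left out, and RPL3L without Raji (RPL39L 0.36 to 0.42, RPL3L 0.70 to 0.83, exact permutation, adjusted p = 0.0651 to 0.0977).

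For RPS27L over RPS27 the difference was 0.47 with an interval from -0.03 to 0.96 (exact permutation, adjusted p = 0.0806). It was -0.28 for RPL36AL below RPL36A, from -0.58 to 0.02 (exact permutation, adjusted p = 0.0806), and 0.07 for RPL26L1 over RPL26, from -0.02 to 0.17 (exact permutation, adjusted p = 0.117). These values hold for the brightest element of each gene, and a second element of RPL26L1 stood at 1.07. Without HLY-1 the pairs of RPS27L and RPL36AL passed, at 0.61 and -0.36 (exact permutation, adjusted p = 0.0423 for both), and without ROS-50 as well, at 0.57 and -0.34 (exact permutation, adjusted p = 0.0439 for both). These 5 pairs share sequence with their parents, and how far an element tells them apart is not given in the sources used here.

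**Figure D4:**
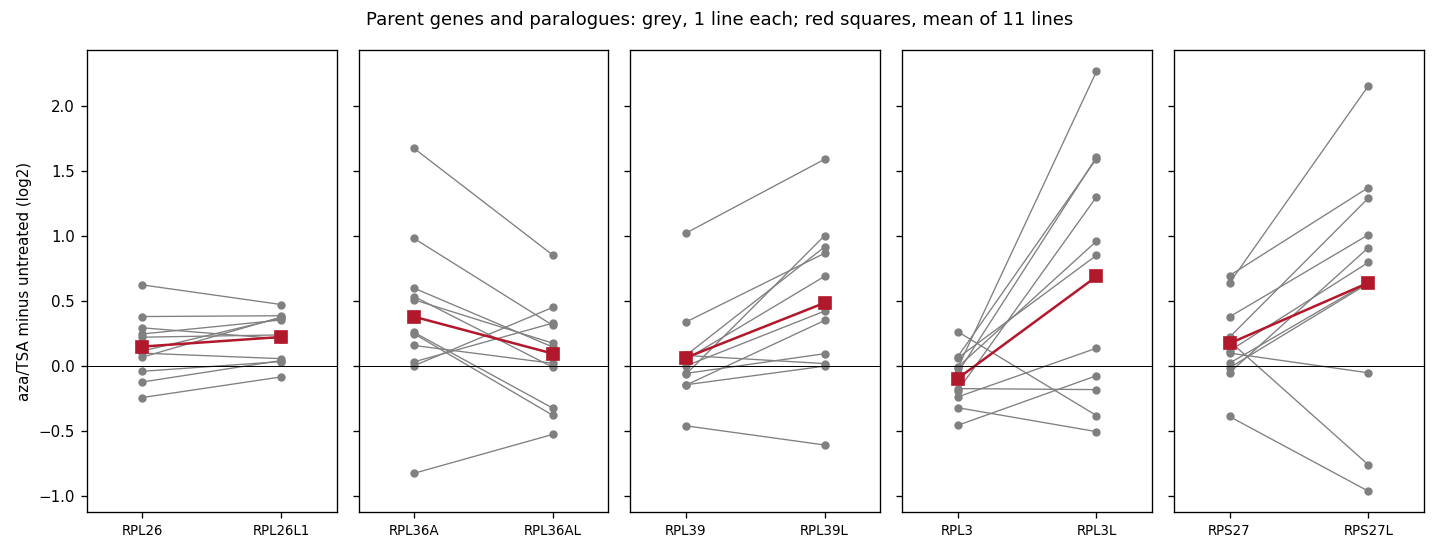
Aza/TSA minus untreated difference (log2) of each parent gene (left) and its paralogue (right); each grey line is 1 cell line and red squares are means of 11 lines. The paralogue mean is above the parent mean in 4 of 5 pairs, and below it for RPL36AL.

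Different elements of a gene mostly lay close together, though not always on the same side of 0. In the 32 members with several elements the largest gap between mean differences was 0.91 and the median gap 0.08, and in 21 of them all elements had the same sign. At the level of elements 4 of 113 were called, a smaller share than the 23.5% of all elements called in either direction. They were that of RPL32, and further, dimmer elements of RPL26L1 (1.07, SE 0.29, adjusted p = 0.0138), RPS12 (0.64, SE 0.17, adjusted p = 0.0121) and RPS7 (-0.85, SE 0.19, adjusted p = 0.0044), all by limma. The last 3 were named after their values were seen. The brightest elements of these genes stood at 0.22, 0.23 and 0.06 and were not called, so the elements of RPS7 differ in sign.

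Between the untreated lines, the members with the widest spread were RPL32 (SD 1.02), RPL34 (SD 0.96) and RPL22 (SD 0.92), against a median SD of 0.33 over members. All 3 were dimmer than the 59 members with a mean level of at least 19. Among other elements the SD of the difference had a median of 0.45 from 13 to 18 and of 0.26 from 19 on. The part of brightness in these spreads was not tested. RPL22, a large subunit protein that is a haploinsufficient tumour suppressor in T-cell lymphoma of mice, was lowest in Ocily3 (14.69), K422 (15.43) and Sudhl6 (15.73) and highest in ROS-50 (17.84), with a median of 16.82. The treated arrays gave the same 3 lowest lines. RPL34 had 12.50 (HLY-1), 14.30 and 15.23 (Raji) as its lowest, median and highest level. No member was found to differ between the lymphoma types. By limma's F-test over the 4 types 0 of 71 members passed in untreated cells, where 0.0973% of all elements (32) did. The lowest adjusted p was 0.435, for RPS27L, and 2 members had an unadjusted p under 0.05 (RPS27L and RPL36A), as did 6.76% of all elements.

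The response to treatment was not found to differ between the types either. For the differences 0 of 71 members passed limma's F-test (0.0% of all elements), 0 had an unadjusted p under 0.05, where 6.51% of all elements did, and the lowest adjusted p was 0.815. Each type had only 2 or 3 lines.

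Other genes of the pathway were counted from fixed lists. Of the 74 measured genes of the mitochondrial ribosome, which translates the messages of the mitochondrial genome, 42 fell and 1 rose, with a median difference of -0.58. Calls are more frequent at their levels: 71 of the 74 had a mean level from 13 to 18, where 48.6% of other elements were called (1504 higher and 1634 lower of 6453), against 14.1% at 19 and above, where 59 of the members lie. MRPS18B fell by 2.0 (SE 0.14, limma adjusted p = 9.6e-07), from a mean of 13.90 to 11.90, and was lower in 11 of 11 lines. MRPS34, MRPL3 and MRPL12 were lower in 11 of 11 lines too, with differences of -1.44, -1.42 and -1.37, while MRPL41 rose by 1.10. The median over cytosolic members lay above that over mitochondrial genes in 11 of 11 lines, by 0.49 (Ramos) to 0.89 (ROS-50), and on median-scaled signals by 0.28 (ROS-50) to 1.36 (Sudhl6). With that scaling 60 of the 74 fell and 1 rose.

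**Figure D5:**
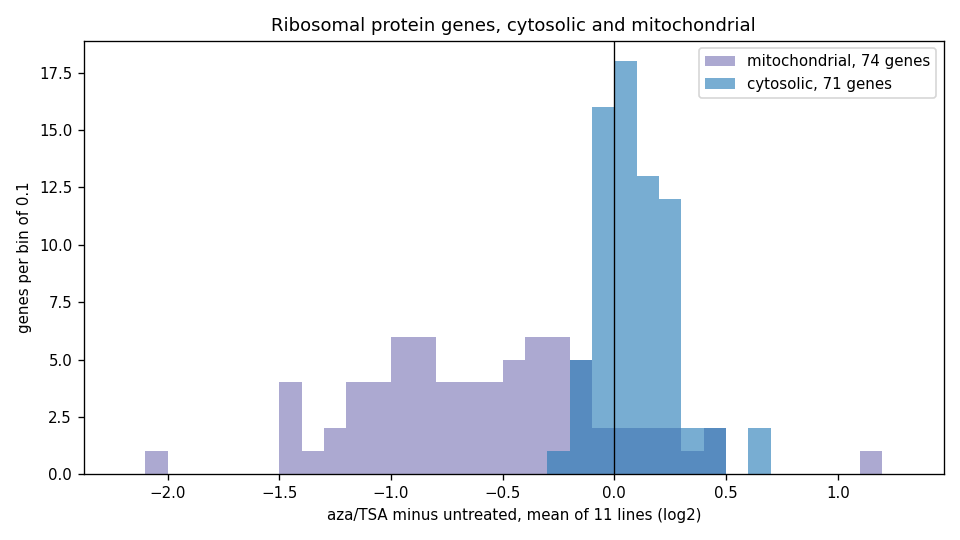
Number of genes (vertical axis) by mean aza/TSA minus untreated difference (horizontal axis, log2, bins of 0.1) for 71 cytosolic and 74 mitochondrial ribosomal protein genes. The cytosolic genes lie close to 0 with a median of 0.06, and the mitochondrial genes have a median of -0.58.

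Of the 8 dedicated chaperones, which hold single ribosomal proteins until they reach the nascent subunit, 6 fell and 1 rose, where 30.3% of all named genes were called, and 48.6% of elements at the levels from 13 to 18 that 6 of the 8 had. PDCD2L fell by 1.16 (SE 0.14, limma adjusted p = 3.7e-05) and PDCD2 by 1.08, both chaperones of RPS2. GRWD1, the counterpart of a yeast chaperone of RPL3, fell by 1.01, LTV1, an assembly factor of the small subunit, by 0.93, BCCIP, a partner of RPL23, by 0.71 and TSR2, a partner of RPS26, by 0.66. ZNF277, another binding partner of RPS2, rose by 0.93, a call it lost with no normalization. Their clients RPL3 (-0.10), RPL23 (0.22), RPS2 (-0.03) and RPS26 (0.26) were not called. These 6 also fell with signals divided by the array median.

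Of the regulators of ribosomal protein translation 9 of 10 listed were measured, with 4 higher and 2 lower (30.3% of all named genes were called). Without Sudhl6 and ROS-50 it was 1 higher, EIF4EBP2, and 2 lower. EIF4EBP2, a brake on cap-dependent translation, rose by 1.26 (SE 0.14, limma adjusted p = 2.1e-05), RPS6KB2 by 0.53, MTOR by 0.42 and RPS6KB1 by 0.41, whereas AKT1S1 fell by 1.53 and MLST8, a subunit of the mTOR complexes, by 0.77. On median-scaled signals EIF4EBP2, AKT1S1 and MLST8 kept their calls and the other 3 lost theirs. MDM2, which RPL5 and RPL11 bind, had a difference of 0.38 and was not called. Its element was above the array median on only 2 of 11 untreated and 4 of 11 treated arrays, so this value says little about MDM2. Of the 9 regulators 7 were detected. Of 15 measured non-ribosomal genes with TOP messages 3 were called, where 30.3% of all named genes were. These genes were bright, with a median level of 18.88 and only 5 from 13 to 18. Of other elements 33% were called from 18 to 19 and 14.1% from 19 on, so the share is not low for such levels. VIM rose by 2.04, EEF1D rose by 0.63 and NPM1 fell by 0.56. The median difference was -0.02, whereas with median scaling 1 rose (VIM) and 6 fell. The elongation factors EEF1A1 and EEF2, at -0.02 and 0.12, were not called, nor was FAU, which encodes a small subunit protein as a fusion, at -0.06.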

How the data were processed

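RNA of 11 untreated and 11 aza/TSA-treated cultures had been hybridized to 1-colour Applied Biosystems arrays read by chemiluminescence. The authors deposited the scanner's raw signals (intensity, linear) and a log2 table, for which the submitters' processing notes name ABarray and Bioconductor. Quantile normalization of the deposited intensity values reproduced that log2 table to within 5.0e-09; each array has a median of 10.18. No background correction or filter was added. Gene names came from the platform annotation, updated by Entrez identifier to RefSeq (GRCh38.p14). Protein sequences were not used here.

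Treatment was tested, two-sided, by eBayes of limma 3.58.1 (R 4.3.3) with a term for each cell line as the block and Benjamini-Hochberg adjustment over all 32878 elements at 0.05, lymphoma types with its F-test, and paralogue against parent by exact sign flips (scipy 1.17.1). The untreated and treated arrays pair because they come from the same line: their deviations from the group means correlated at 0.361 to 0.585, against at most 0.180 between lines. The number of arrays limits the precision. Labels do not say that cultures were repeated, so p-values measure the spread between lines.

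Named members were those past the threshold, the paralogues and their parents, the 3 with the largest SD of the untreated level and of the difference, members whose elements differ by over 1 log2 unit or are called in opposite directions (0 found), and RPLP1, RPLP2, RPS6, RPL5 and RPL11 for their roles; others are examples of a group. Members, lists and tests were chosen with earlier results of these data known. Scripts were tested on simulated data. Alternatives were median scaling, no normalization, quantile normalization repeated here, a floor at the 25th percentile, detected elements only, the mean over elements, no paralogues, no block, a variance trend, other folds and line numbers, each line left out, 8 lines without HLY-1, Ocily10 and Sudhl4, which are dimmer, and the RPMI lines. Leaving out Sudhl6 and ROS-50 and the alternatives of the paralogue pairs were chosen after seeing the data. The correlation with the number in the gene name was not among the planned results.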

Additional observations from a re-analysis of the deposited data

How the results depend on the processing

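The number of members called higher, 1 in the limma fit as reported, was 0 with median scaling, with no normalization, without HLY-1, Ocily10 and Sudhl4, in the RPMI lines alone and with a minimum of 1.5-fold. It was 2 over detected elements only (RPL32 and RPL39L), 3 with the mean over elements (RPL26L1, RPL32 and RPS12) and 5 with a variance trend, and 0 to 2 with each line left out in turn. Without the block that pairs the arrays of a line it was 0. The number called lower, 0, was 1 with median scaling (RPL22). The median member difference, 0.06, was -0.17 with median scaling and -0.083 with no normalization, and 0.038 without Sudhl6 and 0.098 without ROS-50 as the range of leaving out 1 line. At 1.5-fold in place of 2-fold, 2 members (RPL3L and RPS27L) were higher in 6 lines. The other 136 comparisons of a summary with an alternative kept their side. Some could not do otherwise, as the repeated quantile normalization equals the table to within 5.0e-09. That 0 called values reversed says little, since only 1 member was called. Among members that were not called, 41 changed sign with median scaling and 30 with no normalization. Why the count depends on these settings was not tested. The brightest elements are bounded by the ceiling of the quantile-normalized table, and RPL10 and RPL3L by the dim end of the signal.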
